A study of Mus musculus with 6 samples.

Results

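The genes described are 10 markers by which connective tissue fibroblasts are commonly recognised, namely Pdgfra, Dpt, Pi16, Clec3b, Dpp4, Cd248, Pcolce, Serpinf1, Gsn and Fap. They were chosen by name, and each symbol matched exactly 1 of the 22183 rows of the count table. All 10 passed the filter on low counts that left 14005 genes to test. A gene had to reach the filter's level in 3 mice. Clec3b did so in 1 and Fap in 2 of the 3 saline mice, so both were tested only through the PD mice, and their place among the tested genes is not independent of their rise. The peritoneal ECs of 6 mice were sequenced with 1 library per mouse, 3 in the saline and 3 in the PD group. All were wild-type (WT) mice, which the study's methods describe as male C57BL/6J animals aged 8 to 10 weeks. PD mice received PD fluid (Dianeal, a glucose-based dialysis solution) into the peritoneal cavity every day for 6 weeks, and the sham group received saline on the same schedule. The labels describe magnetic selection of CD31+ cells, whereas the supplementary methods describe flow sorting of CD31+ CD45- cells from the digested mesentery. The question put to these genes was whether transcripts of fibroblasts, a cell type that neither selection should retain, were present and whether they differed between the groups.

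Fibroblasts build and renew the collagenous tissue beneath the mesothelium and around vessels. Those around vessels and in the interstitium of many organs are marked by Pi16 and Dpp4 and are often regarded as a reservoir for other fibroblasts, while Pdgfra, the receptor for platelet-derived growth factor, is found on most fibroblasts. In the peritoneum, long exposure to dialysis fluid is known to thicken the submesothelial layer in which these cells lie. Several of the genes are not restricted to fibroblasts: Dpp4 is also a surface protein of T cells and other cells, Cd248 is also made by pericytes, and Gsn is expressed widely.

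The counts of a library summed to 21973426 at the lowest and 26374292 at the highest. Transcripts of the labelled cell type were present, and 11 of 12 endothelial markers were higher in PD mice, the exception being Pecam1, which encodes CD31 (log2 fold change, log2FC, of 0.13 with a standard error, SE, of 0.058, adjusted p = 0.0704 in edgeR's quasi-likelihood test). Summed over the 12 genes, the endothelial level ran from 1122 to 1128 CPM (counts per 1000000 counted reads after TMM scaling) in saline mice and from 1753 to 1842 CPM in PD mice. Markers of other cells were present as well. The summed level of 12 leukocyte markers was 8297 to 8787 CPM in the saline group and 11193 to 11901.5 CPM in the PD group, and that of 10 pancreatic acinar markers was 2.34 to 5.95 CPM and 10095 to 10954 CPM; 9 of these 10 were tested only through the PD mice. Lyz2 weighed heavily on the leukocyte sum, with a mean of 1633 CPM (saline) against 6688 CPM (PD). Of the 12 leukocyte markers, 6 were higher and 5 lower. Among the lower genes, the mean of Ptprc went from 2372 to 1472 CPM and that of Cd79a from 2052 to 889 CPM. The leukocyte sum therefore does not describe a rise of all its markers. In bulk samples such as these, fewer cells of a type and less RNA per cell cannot be told apart.

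To place the genes in the genome, their Ensembl identifiers were looked up in the GENCODE M21 annotation of GRCm38, since the sources used here do not name a build. Pdgfra (ENSMUSG00000029231) lies at chr5:75152292-75198215, Dpt (ENSMUSG00000026574) at chr1:164796644-164824266, Pi16 (ENSMUSG00000024011) at chr17:29317680-29330593 and Clec3b (ENSMUSG00000025784) at chr9:123150946-123157432. Cd248 (ENSMUSG00000056481) lies at chr19:5068078-5070682, Pcolce (ENSMUSG00000029718) at chr5:137605103-137613784, Serpinf1 (ENSMUSG00000000753) at chr11:75409769-75422701 and Gsn (ENSMUSG00000026879) at chr2:35256380-35307892. The peptidase genes Dpp4 (ENSMUSG00000035000; chr2:62330073-62412231) and Fap (ENSMUSG00000000392; chr2:62500943-62574075) are close neighbours on the minus strand of chromosome 2, with 1 protein-coding gene, Gcg, between them.

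RefSeq promoters on GRCm38.p6 were matched for 7 of the 10 genes, with 9 entries in all because Gsn has 3 start sites; Clec3b, Cd248 and Fap had none. The 250 bases before the start are shown for 3 genes that rose under every alternative tried and for Dpp4, the gene that fell, so that their sequences can be compared. The RefSeq starts of Dpt and Pi16 lie inside their GENCODE genes. Capitals mark matches on either strand to any of 4 promoter motifs, which are spelled out after the sequences.
Pdgfra (chr5:75152001-75152250, plus strand): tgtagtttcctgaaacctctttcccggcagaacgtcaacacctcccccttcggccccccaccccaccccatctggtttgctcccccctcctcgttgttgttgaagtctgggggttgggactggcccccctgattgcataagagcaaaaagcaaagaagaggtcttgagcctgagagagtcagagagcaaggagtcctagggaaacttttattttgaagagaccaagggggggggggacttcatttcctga
Dpt (chr1:164796413-164796662, plus strand): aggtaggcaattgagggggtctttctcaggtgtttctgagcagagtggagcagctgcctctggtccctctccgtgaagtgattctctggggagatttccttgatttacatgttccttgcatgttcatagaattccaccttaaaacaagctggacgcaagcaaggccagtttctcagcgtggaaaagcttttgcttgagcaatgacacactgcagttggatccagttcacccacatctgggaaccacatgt
Pi16 (chr17:29318632-29318881, plus strand): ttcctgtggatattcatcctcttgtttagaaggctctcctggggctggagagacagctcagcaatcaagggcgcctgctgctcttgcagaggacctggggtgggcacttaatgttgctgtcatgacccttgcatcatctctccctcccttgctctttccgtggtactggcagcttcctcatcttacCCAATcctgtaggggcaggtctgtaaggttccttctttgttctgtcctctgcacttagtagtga
Dpp4 (chr2:62412232-62412481, minus strand): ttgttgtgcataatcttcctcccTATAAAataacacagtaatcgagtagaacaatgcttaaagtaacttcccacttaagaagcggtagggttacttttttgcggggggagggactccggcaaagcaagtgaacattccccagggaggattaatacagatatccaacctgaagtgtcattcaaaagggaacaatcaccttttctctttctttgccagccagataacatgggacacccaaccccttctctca
Among these 4 promoters, the TATA box, spelled TATAAA, stood near the distal end of that of Dpp4, and the box spelled CCAAT in that of Pi16, and none of the 4 motifs was found in the window of Pdgfra or Dpt. Of the 9 entries, 1 held TATAAA, against 12.4% of all 32851 promoters of this length. CCAAT was in 4 of the 9 (33.8% of all promoters), and the GC box GGGCGG was also in 4 of the 9 (32.7%), namely those of Gsn and Pcolce. The AP-1 motif TGANTCA was in 0 of the 9, and in 6.75% of all promoters. No motif overlapped another in these windows. The share of G and C was 43.6% for Dpp4, 48.8% for Dpt, 52.4% for Pi16 and 54.4% for Pdgfra, and its median over all promoters was 52.4%.

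In PD mice, 9 of the 10 genes were higher and Dpp4 was lower. Of the 8 genes that reached the filter's level in every saline mouse, 7 were higher. The rises ran from about 2-fold for Gsn (fitted fold 2.02) to 7.45-fold for Dpt, and the median log2FC of the 10 was 1.91, against 0.017 over all tested genes. By the edgeR quasi-likelihood test at a threshold of 0.05, 58.9% of all tested genes differed, with 31.1% higher and 27.8% lower. All 9 rises had a log2FC of at least 1 (15.4% of tested genes), and those of Dpt, Cd248, Clec3b and Pdgfra, 4 genes, were above 2 (4.53%). Clec3b, 1 of these 4, and Fap, 1 of the 9, were tested only through the PD mice. In each of the 9 genes every PD mouse lay above every saline mouse, as in 34.0% of tested genes, and in Dpp4 every PD mouse lay below every saline mouse, as in 31.6%. Of the 9 genes, 8 were called higher with DESeq2 and 8 to 9 when single mice were omitted, Fap being the gene that was lost.

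**Figure D1:**
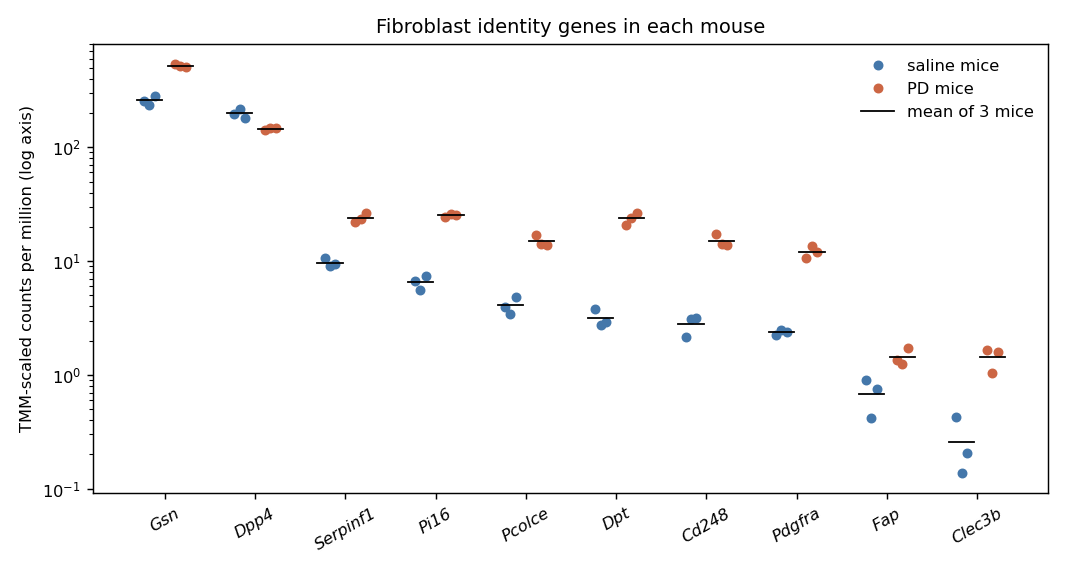
TMM-scaled CPM (log axis) of each of the 10 genes, with 1 point per mouse and a bar at the mean of the 3 mice of a group, ordered by the mean in saline mice. In 9 genes the 3 PD mice lie above the 3 saline mice, in Dpp4 they lie below, and Gsn and Dpp4 stand above the other 8 genes in both groups.

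Among the surface proteins, Pdgfra encodes the alpha receptor for platelet-derived growth factor, which drives the growth and migration of fibroblasts. It was counted 57, 54 and 58 times in the saline mice and 292, 325 and 266 times in the PD mice. All 3 PD mice were high, with no overlap between the groups. Scaled by TMM, its level was 2.37 ± 0.135 CPM in the saline group and 12.1 ± 1.44 CPM in the PD group (SD over 3 mice per group). This was a log2FC of 2.35 with an SE of 0.16 (adjusted p = 5.88e-07 in the edgeR test).

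Cd248 encodes endosialin, a C-type lectin-like receptor of stromal cells. Its counts were 55, 67 and 76 in saline mice and 470, 338 and 304 in PD mice, the first PD mouse being the highest. The groups were widely separated, at 2.79 ± 0.561 CPM and 15.1 ± 1.93 CPM (SD over 3 mice per group). The log2FC was 2.44 (SE 0.18, adjusted p = 1.02e-06 in edgeR's quasi-likelihood test). The counts of Cd248 and Pdgfra stood in nearly the same ratio in both groups: per count of Pdgfra there were 0.965, 1.24 and 1.31 counts of Cd248 in the saline mice and 1.61, 1.04 and 1.14 in the PD mice, ranges that overlap.

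Of the secreted proteins, dermatopontin (Dpt), a small matrix protein that binds collagen and decorin, changed most. It was counted 98, 60 and 70 times in saline mice and 564, 568 and 587 times in PD mice, so that the PD mice lay far above the saline mice. The corresponding levels were 3.16 ± 0.578 CPM and 23.7 ± 2.92 CPM (SD over 3 mice per group), and the log2FC was 2.90 (SE 0.16, adjusted p = 9.68e-08 in the edgeR test). In all tested genes, 1.89% had a larger log2FC. Relative to Pdgfra, Dpt was counted 1.11 to 1.72 times as often in saline mice and 1.75 to 2.21 times in PD mice. These ranges lie close together but do not overlap.

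Pi16, a secreted and membrane-anchored protein of the CAP superfamily that marks adventitial fibroblasts, was counted 172, 121 and 178 times in saline mice and 662, 616 and 565 times in PD mice. The PD mice lay together, at 25.3 ± 0.793 CPM against 6.55 ± 0.906 CPM in saline mice (SD over 3 mice per group). Its log2FC was 1.94 (SE 0.13, adjusted p = 3.40e-07 in the edgeR test). Clec3b encodes tetranectin, a plasminogen-binding lectin of the matrix, and was the scarcest member in saline mice. It had 11, 3 and 5 counts there and 45, 25 and 35 counts in PD mice, groups that did not overlap. The log2FC of 2.42 had an SE of 0.46, the widest of the 10 genes (adjusted p = 0.0011 in the edgeR test).

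Pcolce encodes the procollagen C-endopeptidase enhancer, which speeds the removal of the C-terminal propeptide from fibrillar collagens. Its counts were 101, 74 and 118 in saline mice and 460, 339 and 306 in PD mice, with every PD mouse above every saline mouse. Levels were 4.08 ± 0.746 CPM and 15.0 ± 1.67 CPM (SD over 3 mice per group), with a log2FC of 1.88 (SE 0.16, adjusted p = 4.03e-06 in the edgeR test). Serpinf1 encodes pigment epithelium-derived factor, a secreted serpin known to inhibit angiogenesis. It was counted 273, 195 and 226 times in saline mice and 594, 555 and 581 times in PD mice, again without overlap. It rose less than the other secreted genes, from 9.67 ± 0.877 to 23.8 ± 2.28 CPM (SD over 3 mice per group), a log2FC of 1.30 (SE 0.12, adjusted p = 6.35e-06 in the edgeR test).

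The neighbouring peptidase genes went in opposite directions. Dpp4 (CD26) encodes a surface dipeptidyl peptidase that cleaves chemokines and incretins. It was counted 5046, 4743 and 4394 times in saline mice and 3840, 3509 and 3253 times in PD mice. Every PD mouse was lower than every saline mouse, at 145 ± 3.46 CPM against 199 ± 18.5 CPM (SD over 3 mice per group). Dpp4 fell by 0.46 on the log2 scale (SE 0.07, adjusted p = 0.00036 in the edgeR test), and the fall ranged from -0.52 to -0.38 over the alternatives other than the scaling to endothelial markers. Among the leukocyte genes that were lower in PD mice as well were Ptprc, Ms4a1, Cd79a and Cd3g. Cd3g, a subunit of the T cell receptor complex, had a log2FC of -0.33 (SE 0.06, adjusted p = 0.0011 in the edgeR test), and Cd3e, of the same complex, one of 0.06 (adjusted p = 0.539). The part of these cells in the fall of Dpp4 was not tested.

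Fap encodes fibroblast activation protein, a gelatin-cleaving peptidase of activated fibroblasts and the closest relative of Dpp4. It was scarce in both groups, with 23, 9 and 18 counts in saline mice and 37, 30 and 38 counts in PD mice. The lowest PD mouse was above the highest saline mouse, at a distance smaller than the spread of the saline mice once scaled (0.415 to 0.898 CPM against 1.26 to 1.72 CPM). Its log2FC was 1.05 (SE 0.37, adjusted p = 0.0301 in the edgeR test). The adjusted p was 0.0557 with DESeq2, 0.0917 without saline replicate 2, 0.0523 without saline replicate 3, 0.0592 without PD fluid replicate 1 and 0.094 without PD fluid replicate 3, so the call of Fap did not hold under these alternatives. Per count of Dpp4 there were 0.0019 to 0.00456 counts of Fap in saline mice and 0.00855 to 0.0117 in PD mice. For Pi16, the other marker of adventitial fibroblasts, this ratio was 0.0255 to 0.0405 in saline mice and 0.172 to 0.176 in PD mice.

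Gsn encodes gelsolin, an actin-severing protein with an intracellular and a secreted form, which counts per gene cannot separate. It was counted 6549, 5106 and 6824 times in saline mice and 14528, 12450 and 11116 times in PD mice, and the groups did not overlap. The level rose from 258 ± 23.6 to 519.9 ± 15.5 CPM (SD over 3 mice per group), a log2FC of 1.01 (SE 0.07, adjusted p = 7.65e-07 in the edgeR test). Because Gsn and Dpp4 were so abundant, they dominated any sum over the 10 genes. Together they made up 93.9% ± 0.426 of the summed CPM in saline mice and 84.9% ± 0.611 in PD mice (SD over 3 mice per group). The sum of all 10 genes was 483, 481 and 495 CPM in the saline mice and 790, 786 and 772 CPM in the PD mice, or 1.61 times as high. Without Gsn and Dpp4, a split made after the values were seen and therefore not tested, the sum was 30.8, 26.9 and 31.0 CPM against 115, 117 and 121 CPM, or 3.99 times as high.

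Compared per transcript length, the order of the genes was led by Gsn in both groups. In the FPKM values that the authors deposited, Gsn was at 103 ± 11 in saline mice and 205 ± 10.9 in PD mice, and Dpp4 followed at 37.7 ± 3.17 and 27.7 ± 0.340 (SD over 3 mice per group). Serpinf1 was the third in both groups, at 8.44 ± 1.03 FPKM and 18.9 ± 0.924 FPKM. In saline mice Pi16 (2.99 ± 0.483 FPKM), Pcolce (2.52 ± 0.473 FPKM) and Dpt (1.83 ± 0.340 FPKM) came next, and each overlapped the following gene of the 3. In PD mice Dpt had moved ahead of both, at 13.8 ± 1.33 FPKM, while Pi16 (10.4 ± 0.359 FPKM) and Pcolce (9.61 ± 1.45 FPKM) overlapped. Cd248 was at 1.07 ± 0.214 FPKM in saline mice and 5.82 ± 0.896 FPKM in PD mice, followed by Pdgfra at 0.490 ± 0.173 and 2.04 ± 0.232 FPKM. Fap and Clec3b closed the order, and they could not be separated in saline mice (0.267 ± 0.0876 and 0.260 ± 0.153 FPKM). In PD mice Clec3b, at 1.45 ± 0.345 FPKM, was above Fap, at 0.599 ± 0.161 FPKM. The FPKM of Pdgfra did not follow its counts closely: the ratio of FPKM to CPM differed up to 2.09-fold between mice, against 1.06-fold to 1.24-fold in the other 9 genes.

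**Figure D2:**
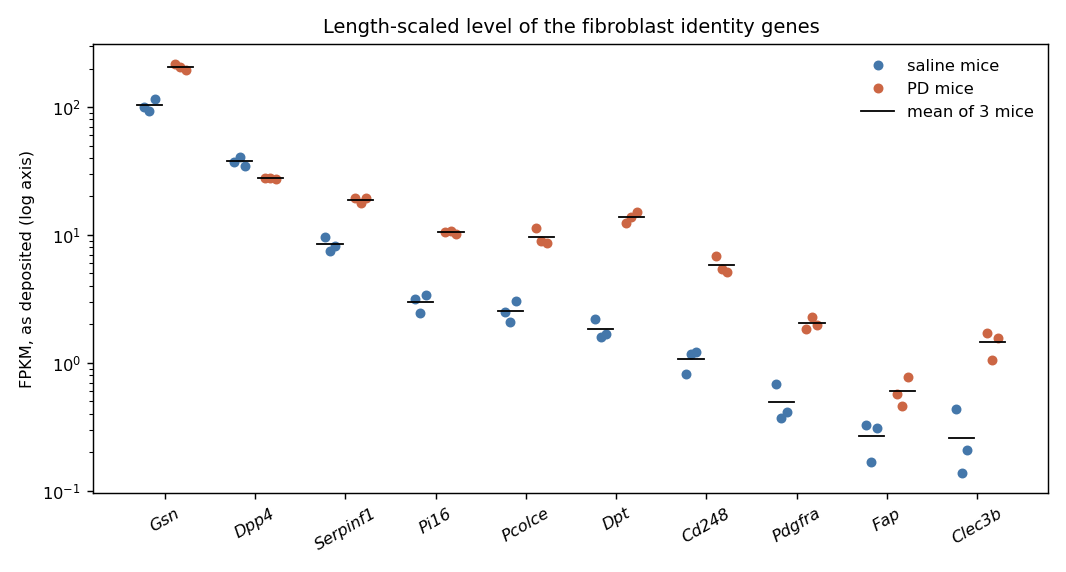
FPKM as deposited (log axis) of the 10 genes, with 1 point per mouse and a bar at the mean of 3 mice, ordered by the mean in saline mice. Gsn and Dpp4 lead in both groups, and Dpt passes Pi16 and Pcolce in PD mice.

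Annotations of the 10 genes were read as well. Since the genes were chosen as known fibroblast markers, the shares describe that choice. In the gene ontology columns of the deposited table, 8 of the 10 were assigned to an extracellular component (Dpt, Pi16, Clec3b, Dpp4, Pcolce, Serpinf1, Gsn and Fap), against 10.025% of the tested genes. A function naming a peptidase, protease or proteinase was listed for 5 (Pi16, Dpp4, Pcolce, Serpinf1 and Fap), against 4.71% of tested genes, and it covers inhibitors and helpers of such enzymes as well as the enzymes. A plasma membrane or cell surface component was listed for 5 (25.1% of tested genes). A process naming collagen was listed for 2 (0.957%), and an extracellular matrix or collagen component for 1, Dpt (2.51%).

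Since 11 of the 12 endothelial markers were higher in PD mice too, the genes were also compared relative to them. The 12 markers did not rise alike, with log2FC values from 0.13 to 1.65 under TMM. After scaling to them, 3 of the 12 were themselves higher and 3 lower. When the libraries were scaled to the 12 endothelial markers, the median log2FC of all tested genes moved to -0.96, and 8.24% of tested genes were higher and 72.2% lower. These shares stand beside each later count relative to the endothelial markers. Clec3b, tested only through the PD mice, was among the 7 of the 10 genes that were still higher in PD mice. Their log2FC values were 1.93 for Dpt, 1.46 for Clec3b, 1.45 for Cd248, 1.38 for Pdgfra, 0.97 for Pi16, 0.90 for Pcolce and 0.33 for Serpinf1, with adjusted p between 3.75e-09 (Dpt) and 0.0411 (Serpinf1) in edgeR's quasi-likelihood test. Gsn, at 0.035 (SE 0.10, adjusted p = 0.761), and Fap, at 0.094 (SE 0.40, adjusted p = 0.835), no longer passed, and Dpp4 was lower by a log2FC of -1.44 (adjusted p = 1.04e-09).

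**Figure D3:**
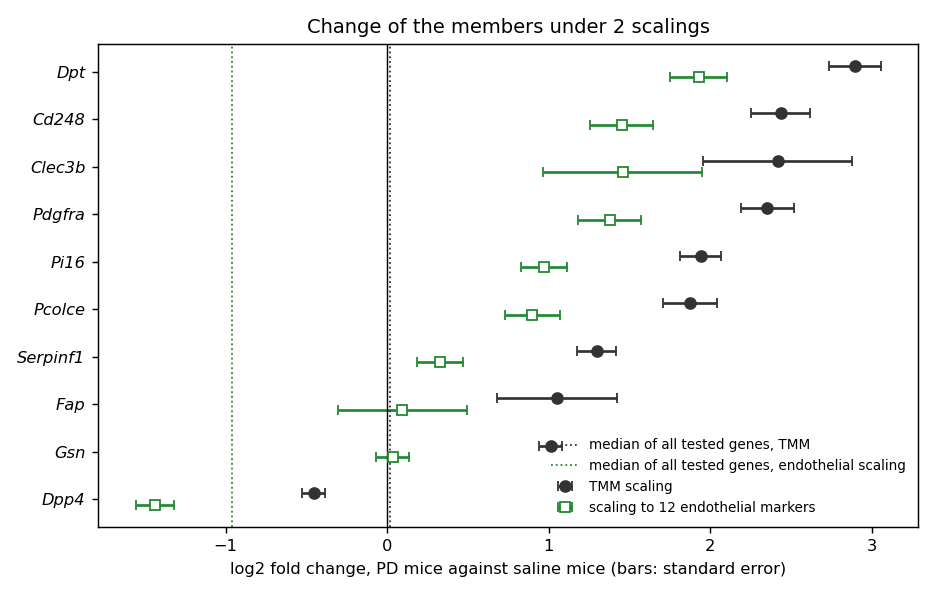
Log2FC of each gene in PD mice against saline mice, with its SE, under TMM scaling (filled circles) and with libraries scaled to 12 endothelial markers (open squares); dotted lines give the median of all tested genes under each. Scaling to the endothelial markers moves every gene down by about the same amount, and leaves Gsn at 0.035 and Fap at 0.094.

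Other genes of fibroblasts were read from lists written beside the 10 genes. Of 24 further matrix and secreted genes of fibroblasts, all 24 were tested and all 24 were higher in PD mice, with log2FC values from 1.07 to 5.22 and a median of 2.47. Their summed level was 238 to 264 CPM in the saline group and 1401 to 1414 CPM in the PD group, and 20 of the 24 were also higher relative to the endothelial markers. Col1a1, the alpha 1 chain of type I collagen, rose from 3.57 ± 1.72 to 51.7 ± 9.92 CPM, and the small proteoglycan lumican (Lum) from 4.64 ± 1.49 to 69.3 ± 7.02 CPM (SD over 3 mice per group). The stromelysin Mmp3 was at 0.267 ± 0.0879 and 4.03 ± 0.946 CPM, and the microfibril protein Mfap4 at 0.147 ± 0.120 and 5.44 ± 0.983 CPM (SD over 3 mice per group), on 1 to 8 counts in the saline mice. Mfap4, which has the largest value of the list, and Mmp3 reached the filter's level in no saline mouse and were tested only through the PD mice. Of the 22 genes that reached it in every saline mouse, all 22 were higher, with log2FC values up to 3.91.

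Of 18 genes that are found with Pi16 and Dpp4 in adventitial fibroblasts, 14 were higher, 1 was lower and 3 did not pass (median log2FC 1.30), and relative to the endothelial markers 10 were higher and 5 lower. Wnt2, 1 of the 14, was tested only through the PD mice. Emilin2, an elastin microfibril protein, rose by 3.43 on the log2 scale, the complement component C3 by 3.33, the hyaluronan synthase Has1 by 3.29 and Igfbp6, which binds insulin-like growth factor II, by 2.99. Cd55, a complement regulator that blood cells also carry, was the lower gene, with a log2FC of -1.06. Which cells supplied the higher or the lower genes of this list was not tested. Ly6a (-0.07, adjusted p = 0.342), Thy1 (0.03, adjusted p = 0.815) and Ccl11 (0.21, adjusted p = 0.151) did not reach the threshold in edgeR's quasi-likelihood test. Like Dpp4, Cd55 and Ly6a were abundant in saline mice, at 619 and 326 CPM.

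Most fibroblast transcription factors were scarce, and of 16 in the list 4 averaged over 1 CPM in saline mice and 6 in PD mice. Only 7 were tested, and 6 of these were higher, with a median log2FC of 1.26 over the 7, and relative to the endothelial markers 2 were higher and 2 lower. Osr1 was at 1.22 ± 0.236 and 5.98 ± 0.158 CPM, Hic1 at 0.728 ± 0.305 and 3.03 ± 0.755 CPM, Prrx1 at 0.626 ± 0.318 and 1.68 ± 0.166 CPM, and Tcf21 at 0.408 ± 0.0468 and 0.979 ± 0.0813 CPM (SD over 3 mice per group). The adjusted p of Tcf21 was 0.0145 with edgeR and 0.0556 with DESeq2. Ebf2 (log2FC 0.41, adjusted p = 0.119) did not pass. Tcf21, which sets the median, and Prrx1 reached the filter's level in 1 and 2 saline mice and were tested only through the PD mice. Of the 5 factors that reached it in every saline mouse, 4 were higher, namely Osr1, Hic1, Meox1 and Meox2. Meox1 and Meox2 were the most abundant factors of the list in both groups and rose less. Their log2FC values were 0.97 and 0.42, against 2.29 for Osr1 and 2.05 for Hic1. The median of the 12 endothelial markers was 0.96. Which cells supplied the transcripts of Meox1 and Meox2 was not tested. Twist1, Tbx18 and Foxd1 had no counts in any saline mouse, and Foxd1 none in PD mice.

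Among genes of activated fibroblasts and myofibroblasts, 15 of 17 tested were higher and 0 were lower, with a median log2FC of 1.54, and relative to the endothelial markers 7 were higher and 2 lower. Timp1, an inhibitor of metalloproteinases, rose by 3.46, fibronectin (Fn1) by 3.28 and interleukin 6 (Il6) by 3.01 on the log2 scale. Inhba, a subunit of activin, had a log2FC of 1.74 (SE 0.65, adjusted p = 0.0377 in the edgeR test) on 1 to 9 counts in saline mice. Inhba and Timp1 reached the filter's level in no saline mouse and were tested only through the PD mice, and of the 15 genes that reached it in every saline mouse 13 were higher. The adjusted p of Inhba was 0.102 without saline replicate 1, 0.0658 without PD fluid replicate 2 and 0.156 without PD fluid replicate 3. Aspn (0.23, adjusted p = 0.121) and Adam12 (0.60, adjusted p = 0.0718) did not pass.

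**Figure D4:**
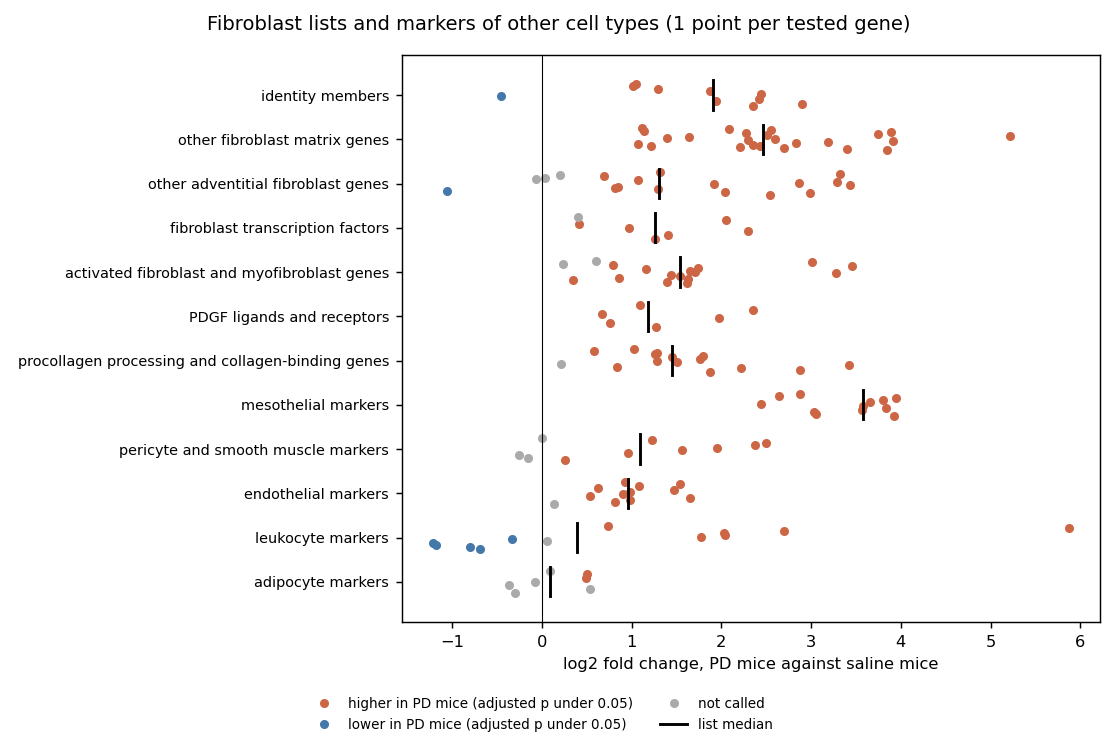
Log2FC of every tested gene of each list in PD mice against saline mice, coloured by its call at an adjusted p under 0.05, with a bar at the list median. The 24 further matrix genes are all higher, with a median of 2.47, mesothelial markers have a median of 3.57, and leukocyte markers go in both directions.

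Genes that work with single members were read in the same way. For Pdgfra, the 6 tested genes among PDGF ligands and receptors, Pdgfra included, were all higher in PD mice, and 2 of them, Pdgfra and Pdgfc, stayed higher relative to the endothelial markers. Pdgfc, a ligand of this receptor, rose from 3.43 ± 0.241 to 13.5 ± 2.32 CPM, Pdgfa, another of its ligands, from 2.12 ± 0.443 to 5.11 ± 0.853 CPM, and the beta receptor Pdgfrb from 5.12 ± 0.845 to 10.9 ± 1.87 CPM (SD over 3 mice per group). For Pcolce, 14 of 15 tested genes of collagen maturation, Pcolce included, were higher under TMM, and 8 relative to the endothelial markers. The procollagen N-proteinase Adamts2 rose by 3.42 on the log2 scale, the second enhancer Pcolce2 by 2.87 and Bmp1, the C-proteinase that both enhancers stimulate, by 2.22. Adamts14 (0.21, adjusted p = 0.679) was the gene that did not pass. Pcolce2 reached the filter's level in 2 saline mice and was tested only through the PD mice.

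The families of Dpp4, Gsn and Cd248, these genes included, had median log2FC values of 0.32, 0.74 and 1.13. In the family of Dpp4, Fap, Dpp7 (0.58) and Dpp9 (0.45) were higher on the log2 scale, and Dpp4 and Dpp8 (-0.18) were lower. Prep (0.19, adjusted p = 0.135 in the edgeR test) did not pass. Relative to the endothelial markers 5 of the 6 were lower and 0 higher, beside 72.2% and 8.24% of all tested genes. With the replicate block, without the filter on low counts or with any 1 mouse left out, 1 of the 6 was lower instead of 2. In the gelsolin family, Gsn, Svil (0.77) and Scin (1.18) were higher and Capg, an actin-capping protein of macrophages and other cells, was lower (-0.67). Relative to the endothelial markers 0 of this family were higher and 2 lower, beside the same shares. Flii (0.19, adjusted p = 0.126) and Avil (0.70, adjusted p = 0.249) did not pass. Scin and Avil, like Fap, were tested only through the PD mice. Scin rested on few counts (10 to 51 per mouse), and its adjusted p of 0.033 in the edgeR test became 0.107 without saline replicate 1, 0.0642 without saline replicate 3, 0.0563 without PD fluid replicate 1 and 0.135 without PD fluid replicate 3. The relatives of Cd248 are genes of ECs, namely Cd93, Clec14a and Thbd, and had log2FC values of 0.95, 0.71 and 1.30 beside 2.44 for Cd248. Relative to the endothelial markers Cd93 and Clec14a turned to -0.027 and -0.27.

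Markers of other cells of the peritoneum were read in the same libraries. All 12 mesothelial markers were higher in PD mice, with a median log2FC of 3.57 and a summed level of 18.2 to 22.1 CPM in the saline group and 187 to 213 CPM in the PD group, and none was at 0 in a whole group. Wt1, Muc16, Bnc1 and Nkain4, 4 of the 12, were tested only through the PD mice, and all 8 that reached the filter's level in every saline mouse were higher. Of 10 markers of pericytes and smooth muscle, 7 were higher and 3 did not pass, and their sum was 249 to 274 CPM and 332 to 375 CPM. Cspg4, 1 of the 7, was tested only through the PD mice, and 6 of the 9 that reached the filter's level in every saline mouse were higher. Relative to the endothelial markers 3 of the 10 were higher and 4 lower. Of 7 tested adipocyte markers 2 were higher, and of 5 tested Schwann cell markers 2 were higher, beside 31.1% of all tested genes. Cdh19, 1 of the latter 2, was tested only through the PD mice. Lep was too scarce to be tested, with 5, 2 and 2 counts in the saline mice and 0 in every PD mouse. Relative to the endothelial markers 0 adipocyte markers were higher and 6 lower, and 0 Schwann cell markers were higher and 1 lower. Of all tested genes, 8.24% were higher and 72.2% lower under that scaling. In the leukocyte list 6 genes were higher and 5 lower. Genes of macrophages and granulocytes were among the former, with log2FC values of 2.03 for Lyz2, 2.04 for Adgre1, 2.69 for Itgam and 5.87 for S100a8, while the B cell genes Ms4a1 and Cd79a were among the latter. The part of these cells in the changes of the 10 genes was not tested.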

How the data were processed

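RNA of peritoneal ECs from 3 saline and 3 PD mice was sequenced on an Illumina instrument. The authors deposited 1 table with the read count and the FPKM of each gene in each mouse, the mean FPKM of each group, and their own log2 ratio, p-value and FDR; the last 3 and the means were not used. The submitters' processing notes name fastp 0.18.0, Bowtie2 2.2.8, HISAT2, StringTie and RSEM without their roles, so the deposited counts, all whole numbers, may be rounded estimates. The genome build is not given in the sources used here, and 22128 of 22183 identifiers were found in GENCODE M21. No column of sample values was left unmatched. Samples were grouped by their labels.

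Counts were filtered with filterByExpr (minimum count 10), scaled by TMM and tested with edgeR 4.0.16 (glmQLFit and glmQLFTest, no covariate) in R 4.3.3, with Benjamini-Hochberg adjustment over 14005 genes and a threshold of 0.05. Fold changes compare PD with saline mice, and standard errors were derived from the F statistic. The alternatives were the replicate number as a block, DESeq2 1.42.0, limma-voom (limma 3.58.1, the tool the study's methods name), no filter, no TMM, scaling to 12 endothelial markers, and leaving out each mouse. The fit was tested on simulated counts. Figures were drawn with matplotlib 3.10.9.

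The 10 genes, the lists and the tests were chosen with earlier results of these data known. All 10 genes were named, and from the fibroblast, family and leukocyte lists up to 4 called genes with the largest change and a mean of at least 10 counts, and uncalled genes where they were 5 or fewer. Cd55, Cd3g, Dpp8, Ptprc, Ms4a1, Cd79a, Meox1, Meox2, the genes without counts, those tested only through the PD mice and Pecam1 were named after their values were seen. Against that rule, marker lists of other cells are given by counts and summed levels. The values of 1 gene of the leukocyte list are not reported here. Nothing says whether the mice of a group shared a cage or a day. The p-values set the difference between the groups against the variation between these 3 mice a group, estimated with information shared across genes.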

Additional observations from a re-analysis of the deposited data

How the results depend on the processing

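The direction of all 10 genes was kept under the 12 alternatives, and 8 of them, Gsn and Fap excepted, kept their call under each. With each mouse left out in turn, 6961 to 7931 genes were called, 3852 to 4289 higher and 3108 to 3708 lower; of the 10 genes, 8 to 9 were higher and 1 was lower. With the libraries scaled to endothelial markers, 1154 genes were higher and 10111 lower, against 4359 and 3887 under TMM, and this scaling turned the log2 fold change of Thy1 to -0.95, Ccl11 to -0.78, Ebf2 to -0.57, Aspn to -0.75, Adam12 to -0.37, Adamts14 to -0.75, Dpp7 to -0.40, Dpp9 to -0.52, Prep to -0.79, Svil to -0.20, Avil to -0.26, Flii to -0.79, Cd93 to -0.027, Clec14a to -0.27, Pecam1 to -0.85 and Cd3e to -0.91, as follows from its shift of the median of all genes to -0.96. With single mice left out, Thy1 ran from -0.0057 (without saline replicate 3) to 0.096, and Adamts14 from -0.11 (without saline replicate 2) to 0.69. The cause of these 2 reversals was not tested. Ccl11 passed the threshold without saline replicate 2 (0.32), Aspn without PD fluid replicate 1 (0.34), Prep without PD fluid replicate 3 (0.27) and Pecam1 without saline replicate 2 (0.17) or without TMM (0.14), and 1 Schwann cell marker was higher in place of 2 without PD fluid replicate 2.

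With CPM in place of FPKM, all 10 genes kept their rank in saline mice and 3 kept it in PD mice. With the replicate number as a block, 7909 genes were called against 8246, and the 10 genes gave 9 higher and 1 lower. The numbers did not pair the mice: the correlation of same-numbered deviations from the group means was 0.188, 0.0671 and -0.274. Fap, Clec3b, Prrx1, Tcf21, Inhba and Scin are limited by their depth, with 23 counts or fewer in any saline mouse.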

Other observations

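Among 9279 tested genes outside the lists with a mean of at least 10 CPM, those whose log2 CPM followed the mean standardised level of the 10 genes most closely over the 6 mice were Fcgr4, Cdkn1a, Cfp, Ggcx and Hyal2, with Pearson's r from 0.9991 to 0.9997. The 6 mice fall into 2 separate groups, so that 1259 of these genes had an r above 0.95, and the values describe the step between the groups. Fcgr4, an Fc receptor of myeloid cells, averaged 3.65 CPM in the saline and 22.1 CPM in the PD group, and Cfp, which encodes the complement regulator properdin, at 212 and 561 CPM.

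Counts of genes that rose were compared with those of Pdgfra, without a test. Pi16 was counted 3.02, 2.24 and 3.07 times for each count of Pdgfra in the saline mice and 2.27, 1.90 and 2.12 times in the PD mice. These ranges overlap, as do those of Cd248 per Pdgfra. The ranges of Dpt per Pdgfra, at most 1.72 in saline and at least 1.75 in PD mice, narrowly did not.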
